A study of Mus musculus with 16 samples.

Results

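The LIF, Jak and Stat3 pathway was followed through 8 genes, chosen by name and found by symbol among the 22375 genes of the deposited count tables. They were the ligand gene Lif, the receptor chains Lifr and Il6st, the kinases Jak1 and Jak2, the transcription factor Stat3, the feedback inhibitor Socs3 and the kinase gene Pim1. All 8 had enough counts to be tested. Doxorubicin raised Lif and lowered Lifr, Il6st, Stat3, Socs3 and Pim1 in WT and in Cfp1-/- ES cells, whereas Jak1 and Jak2 did not pass the test in either line. Without treatment, Lif and Stat3 were higher in Cfp1-/- than in WT cells, and with doxorubicin Il6st and Pim1 were lower. Stat3, at a log2 difference of 0.43, lay near the median of 0.51 for the genes of its chromosome. The Stat3 and Pim1 calls between the lines were each lost in some fits that left out 1 library.

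Leukemia inhibitory factor (LIF) is a cytokine of the interleukin-6 family that keeps mouse ES cells from differentiating in culture. It binds Lifr, which pairs with the shared signalling chain gp130, the product of Il6st, and the kinases Jak1 and Jak2 held on these chains phosphorylate Stat3. Phosphorylated Stat3 moves to the nucleus and binds gene control regions, among its known targets being Socs3, whose product blocks the receptor complex in turn, and Pim1, which encodes a serine/threonine kinase.

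RNA came from E14TG2a ES cells (WT), a mouse line of 129/OLA background, and from Cfp1-/- ES cells of the same labelled strain, which lack the CpG-binding subunit of the Set1 histone methyltransferase complex. Each line was left untreated or was given doxorubicin, a topoisomerase poison that breaks DNA, for 6 h (Dox), which makes 4 groups of 2 biological replicates, each sequenced in 2 technical replicates. The dose was 1 µM in the protocol and in the methods of the study, whereas the treatment label of the samples reads 1000 µM when put in the same unit. All groups were grown in serum with LIF added, so the pathway was supplied with its ligand in every library. How many clones the Cfp1-/- cells came from is not given in the sources used here, so the absence of Cfp1 and any other difference between the lines cannot be told apart.

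Values below are the deposited normalized counts, that is, read counts of a biological replicate summed over its technical replicates and divided by a DESeq size factor. Fold changes are on the log2 scale from edgeR's quasi-likelihood test on the raw counts, with the standard error (SE), n = 2 per group and p-values adjusted by the Benjamini-Hochberg method over 15758 genes, and a gene is said to have passed at an adjusted p under 0.05. The p-values measure the spread between these libraries alone. The comparisons draw on the same 8 libraries and so share samples with each other. Total counts ran from 14880589 to 29422711 per library. Cxxc1, the gene of Cfp1, had 616 to 1412 counts in WT libraries and 1 to 5 in Cfp1-/- libraries. The 10 ES cell markers were present in every library, Pou5f1 between 7043 and 16753 and Nanog between 506 and 14050 normalized counts, and 9 of the 10 fell with doxorubicin in each line. Their sum ran from 92720 to 117762 without and from 32094 to 45388 with doxorubicin. The 8 fibroblast markers summed to 250 to 261 without and 439 to 575 with doxorubicin in WT cells. In Cfp1-/- cells the sums were 130 to 137 and 397 to 544. Mean Col1a1 rose from 73.1 to 283 in WT and from 9.02 to 221 in Cfp1-/- cells, and Thy1 and Pdgfrb rose in both lines. Dcn fell in mean in both lines, and in WT cells Col1a2 fell from 52.7 to 41.0 and Col3a1 from 53.4 to 29.8. The sums of the 8 primitive endoderm markers without and with doxorubicin were 197 to 263 and 373 to 382 in WT cells. In Cfp1-/- cells they were 370 to 542 and 587 to 699. Mean Pdgfra rose from 27.6 to 216 in WT and from 154 to 449 in Cfp1-/- cells, whereas Dab2 and Sox7 fell in both lines. The 8 trophoblast markers summed to 2381 to 4930 in WT against 1210 to 1908 in Cfp1-/- libraries. In untreated cells Krt8 had means of 1663 in WT and 155 in Cfp1-/- cells, and Krt18 1467 and 296. Tfap2c went the other way, with 537 and 1172, as did Elf5. These markers move with the treatment or the line, and their part in the results below was not tested. In bulk RNA, fewer cells of a type and less RNA per cell cannot be told apart. In the second technical replicate of Cfp1-/- Dox replicate 1, 209 of 291 well-covered genes on chromosome 19 and 225 of 280 on chromosome X had 0 counts. Jak2 was among them.

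The 8 genes lie on 6 chromosomes, and 3 of them, Lif, Stat3 and Socs3, share chromosome 11. In mm9 coordinates (NCBIM37) Lif (ENSMUSG00000034394) lies at chr11:4157560-4172517 on the plus strand, Stat3 at chr11:100746412-100800854 and Socs3 at chr11:117827393-117831361, both on the minus strand. Lifr lies at chr15:7079559-7147489, Il6st at chr13:113265216-113297068, Pim1 at chr17:29627757-29632390 and Jak2 at chr19:29326318-29387570, all on the plus strand, and Jak1 at chr4:100824972-100937887 on the minus strand. The Stat5a gene overlaps Stat3 by 72 bp on the opposite strand, and reads were counted by strand. Osm, which encodes the related cytokine oncostatin M, ends 16530 bp before Lif.

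Promoter windows of 300 bases, from 250 before to 50 after the annotated start, were taken from RefSeq (GRCm38.p6), which holds 10 windows for the 8 genes. STAT proteins bind the palindrome TTCNNNGAA, which is found in 8.3% of 32851 mouse promoter windows (N is any base). Among the 8 genes only the Socs3 window holds it, as TTCTTAGAA beginning 154 bases before the start. That is 1 window of 10, near the share of all windows. The stricter form TTCCNGGAA, found in 1.15% of windows, is in none of the 10. Both motifs read the same on either strand, and every match to the stricter one is a match to the other. The Socs3 window (chr11:117969317-117969616, minus strand) is shown for this match, which is in capitals.
Socs3: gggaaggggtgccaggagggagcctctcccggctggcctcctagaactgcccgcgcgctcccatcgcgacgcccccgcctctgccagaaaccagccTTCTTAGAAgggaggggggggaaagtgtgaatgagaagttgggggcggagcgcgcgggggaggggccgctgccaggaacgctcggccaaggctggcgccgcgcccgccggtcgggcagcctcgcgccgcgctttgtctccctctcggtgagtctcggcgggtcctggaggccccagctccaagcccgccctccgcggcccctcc

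Cfp1 binds unmethylated CpG dinucleotides, and the CpGs of each window were counted too, a count added after the fold changes were known. Over all windows the median was 7 CpGs, with quartiles of 3.0 and 20.0. Lifr had 53 in its upstream window and 4 in its second, Jak2 44, Pim1 42 and 5, Il6st 33, Socs3 31, Jak1 29, Stat3 15 and Lif 7. The second windows of Lifr and Pim1, which fell with doxorubicin, thus held fewer CpGs than that of Lif, which rose. Any relation between CpGs and the responses was not tested. Lif sat at the median of all promoters, and Il6st above 91.4% of them. These windows are shown with each CpG in capitals, Lif at chr11:4257318-4257617 and Il6st at chr13:112463820-112464119, both on the plus strand.
Lif: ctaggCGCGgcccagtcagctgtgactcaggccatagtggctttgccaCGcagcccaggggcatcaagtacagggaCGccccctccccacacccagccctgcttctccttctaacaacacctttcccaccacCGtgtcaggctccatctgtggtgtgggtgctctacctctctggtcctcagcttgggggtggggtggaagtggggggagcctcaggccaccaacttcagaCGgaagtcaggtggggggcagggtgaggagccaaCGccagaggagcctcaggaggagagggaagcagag
Il6st: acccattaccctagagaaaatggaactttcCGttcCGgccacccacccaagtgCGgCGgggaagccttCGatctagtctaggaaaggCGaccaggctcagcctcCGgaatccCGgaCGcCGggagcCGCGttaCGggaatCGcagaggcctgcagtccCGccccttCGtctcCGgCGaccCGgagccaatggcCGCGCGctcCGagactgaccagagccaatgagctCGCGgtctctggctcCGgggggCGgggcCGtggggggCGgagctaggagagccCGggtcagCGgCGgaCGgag

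To compare levels between genes, normalized counts were divided by exon length in kb. In untreated WT cells Pim1 was highest at 906 ± 119 (SD, n = 2), followed by Lifr at 710 ± 161, Il6st at 627 ± 96.7 and Socs3 at 546 ± 104, and each of these overlapped its neighbour in this order. Stat3 at 315 ± 22.8, Jak1 at 234 ± 2.09, Jak2 at 85.2 ± 26.6 and Lif at 16.0 ± 0.0313 followed without overlap. In untreated Cfp1-/- cells Socs3, Lifr, Pim1 and Il6st again took the upper places, between 611 ± 6.25 and 445 ± 2.83, and Lif the lowest at 43.6 ± 0.121. With doxorubicin the range narrowed. In WT Dox cells the levels ran from 295 ± 71.1 for Socs3 to 91.9 ± 33.9 for Jak2, with Jak1 at 274 ± 3.48 now above Lifr at 223 ± 62.1, Stat3 at 180 ± 5.03, Pim1 at 167 ± 27.4 and Lif at 118 ± 7.46. In Cfp1-/- Dox cells Il6st at 104 ± 20.7 and Pim1 at 70.5 ± 31.3 lay below Lif at 130 ± 17.9 in mean, with Lif and Il6st overlapping.

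**Figure D1:**
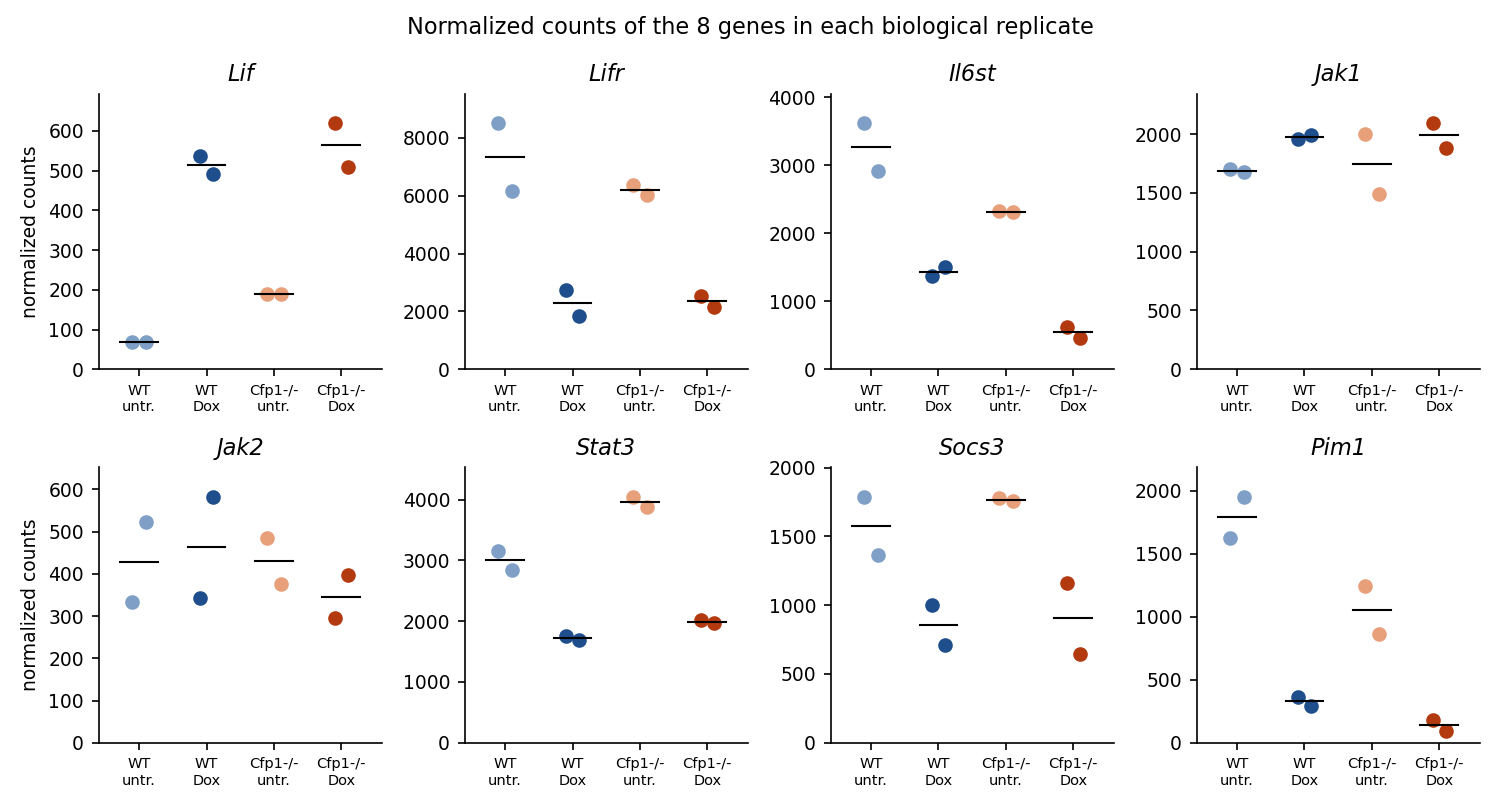
Normalized counts (vertical axes, each from 0) of the 8 genes in the 8 biological replicates, with 2 points per group, replicate 1 to the left, and a line at the mean. Lif rises from 69.7 and 69.8 to 491 or more in WT cells, while Lifr, Il6st, Stat3 and Pim1 are lower in every treated than in every untreated library.

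To see how the pathway genes respond to DNA damage, Dox libraries were compared with untreated libraries within each line. Of the 8 genes, 1 rose and 5 fell in WT cells, and the same counts were found in Cfp1-/- cells. Over all genes tested, 26.5% rose and 21.8% fell in WT cells, and 27.8% rose and 21.0% fell in Cfp1-/- cells, so many genes outside the pathway moved as well. The median log2 fold change of the 8 genes was -0.80 in WT and -0.94 in Cfp1-/- cells, against 0.06 and 0.01 over all genes. At the limits used in the study, a 2.5-fold change and a mean over libraries of 200 normalized counts or more, Lif, Lifr and Pim1 were called in WT cells, and these with Il6st in Cfp1-/- cells. At these limits 5.10% of all genes were higher and 2.80% lower in WT cells, and 5.38% and 2.23% in Cfp1-/- cells.

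Lif, the ligand, had 69.7 and 69.8 normalized counts in untreated WT cells and 537 and 491 in WT Dox cells. In Cfp1-/- cells it had 190 and 189 without and 620 and 510 with doxorubicin. Every treated library was above every untreated library of either line. The rise was 7.60-fold in WT cells, a log2 fold change of 2.93 (SE 0.202, adjusted p = 7.69e-06), and 3.07-fold in Cfp1-/- cells, a log2 fold change of 1.62 (SE 0.187, adjusted p = 1.17e-04).

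Lifr, the ligand-binding receptor chain, had 8514 and 6155 normalized counts in untreated WT cells and 2753 and 1846 in WT Dox cells. In Cfp1-/- cells it had 6382 and 6015 without and 2547 and 2142 with doxorubicin. The treated and untreated libraries did not overlap. Lifr fell by 1.63 on the log2 scale in WT cells (SE 0.217, adjusted p = 2.55e-04) and by 1.36 in Cfp1-/- cells (SE 0.215, adjusted p = 7.16e-04).

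Il6st, the signal-transducing chain, had 3620 and 2908 normalized counts in untreated WT cells and 1366 and 1508 in WT Dox cells. In Cfp1-/- cells it had 2329 and 2308 without and 618 and 466 with doxorubicin, the latter being the lowest values of the 8 libraries. After treatment it was lower in WT cells, with a log2 fold change of -1.14 (SE 0.170, adjusted p = 5.06e-04). The fall in Cfp1-/- cells was 4.15-fold, a log2 fold change of -2.05 (SE 0.176, adjusted p = 2.43e-05).

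The receptor-associated kinases showed no change that passed the test. Jak1 had 1700 and 1678 normalized counts in untreated WT cells, 1960 and 1995 in WT Dox cells, 2000 and 1487 in untreated Cfp1-/- cells and 2094 and 1886 in Cfp1-/- Dox cells. Its log2 fold change was 0.27 (SE 0.158, 95% interval -0.08 to 0.63, adjusted p = 0.182) in WT and 0.23 (SE 0.158, interval -0.12 to 0.59, adjusted p = 0.253) in Cfp1-/- cells. These values depend on TMM scaling, which centres the bulk of the genes near 0. Where libraries were scaled to their total counts, the median over all genes was 0.37 in WT and 0.23 in Cfp1-/- cells. On that scale Jak1 rose by 0.59 (adjusted p = 0.00959) and 0.45 (adjusted p = 0.0330). In total count scaling 5731 genes were higher and 1836 lower in WT cells, against 4174 and 3433 in TMM scaling, and 5271 and 2057 against 4386 and 3306 in Cfp1-/- cells.

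Jak2 had 334 and 523 normalized counts in untreated WT cells and 342 and 583 in WT Dox cells, so its replicates differed more than its groups. It had 484 and 377 in untreated Cfp1-/- cells and 295 and 397 in Cfp1-/- Dox cells. The value of 295 rests on 289 counts in the first technical replicate and 0 in the second, the run in which part of chromosome 19 was lost. As CPM (counts scaled to the run's total), Jak2 was at 24.5 in the first run of that replicate and at 21.3 and 23.7 in the runs of replicate 2. Its log2 fold change in Cfp1-/- cells came to -0.27 (SE 0.305, adjusted p = 0.490) with this run and 0.02 (adjusted p = 0.962) without it, and in WT cells it was 0.16 (SE 0.304, adjusted p = 0.689).

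Stat3 fell less than the receptor genes, with little spread between replicates. It had 3157 and 2850 normalized counts in untreated WT cells and 1751 and 1684 in WT Dox cells, and 4050 and 3884 against 2013 and 1968 in Cfp1-/- cells. Treated and untreated libraries did not overlap. The log2 fold change was -0.76 in WT (SE 0.120, adjusted p = 7.0e-04) and -0.95 in Cfp1-/- cells (SE 0.120, adjusted p = 1.95e-04), a level 1.69-fold and 1.94-fold lower.

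The Stat3 targets Socs3 and Pim1 were also lower. Pim1 had 1622 and 1953 normalized counts in untreated WT cells and 367 and 290 in WT Dox cells, and 1245 and 864 against 183 and 95.4 in Cfp1-/- cells. It fell by 2.40 on the log2 scale in WT cells (SE 0.298, adjusted p = 1.70e-04) and by 2.88 in Cfp1-/- cells (SE 0.310, adjusted p = 7.81e-05), more than any other of the 8 genes. The lowest untreated library was above the highest treated one. Socs3 had 1790 and 1366 normalized counts in untreated WT cells and 999 and 709 in WT Dox cells. In Cfp1-/- cells it had 1780 and 1754 without and 1162 and 645 with doxorubicin. It fell by 0.84 in WT (SE 0.273, adjusted p = 0.0283) and by 0.92 in Cfp1-/- cells (SE 0.272, adjusted p = 0.0185). This was the call closest to the threshold: it was lost in WT cells without untreated replicate 1 (log2 fold change -0.63, adjusted p = 0.142), without Dox replicate 2 (-0.62, adjusted p = 0.151) and in total count scaling (-0.53, adjusted p = 0.128). In Cfp1-/- cells it was lost without Dox replicate 2 (-0.56, adjusted p = 0.122) and without either untreated replicate (-0.92, adjusted p = 0.0591 and -0.95, adjusted p = 0.0583). The responses of Lif, Lifr, Il6st, Stat3 and Pim1 passed in every fit that left out 1 library.

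Technical replicates agreed less in the treated replicates 1 than elsewhere. In Cfp1-/- Dox replicate 1 the second run was above the first in CPM by a log2 ratio of 0.61 for Pim1 and 0.52 for Socs3, and in WT Dox replicate 1 by 0.33 for Socs3, whereas in the other 6 libraries these genes ran from -0.105 to 0.165. Jak1 was lower in the second run of both, by log2 ratios of -0.305 and -0.232. The responses of Socs3 and Pim1 passed as well without the affected run of Cfp1-/- cells, with adjusted p = 0.00580 and adjusted p = 3.74e-05.

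**Figure D2:**
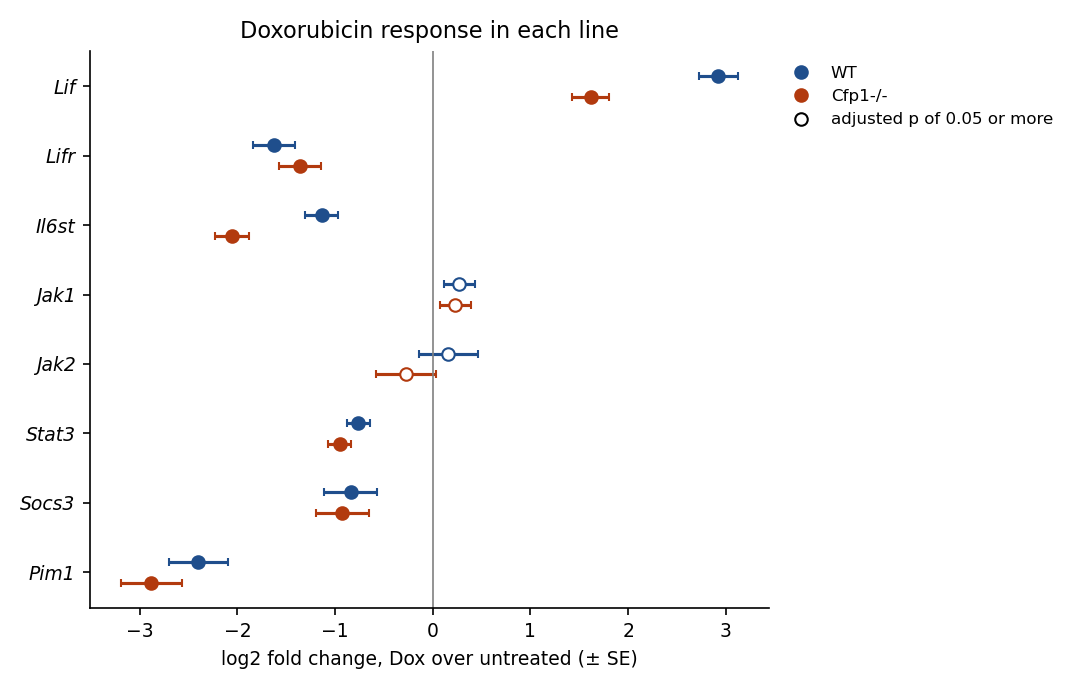
Log2 fold change of Dox over untreated cells (horizontal axis) for the 8 genes, as points with bars of 1 SE, in WT (blue) and Cfp1-/- cells (red). Filled points passed at an adjusted p under 0.05. Lif alone lies to the right of 0 with a filled point, at 2.93 and 1.62, and Jak1 and Jak2 have open points in both lines.

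Among 41 other genes of the pathway and its family, of which 39 had enough counts, 17 rose and 9 fell in WT cells. In Cfp1-/- cells 14 rose and 6 fell, and the medians were 0.31 in WT and 0.29 in Cfp1-/- cells. Over all genes 26.5% rose and 21.8% fell in WT cells, and 27.8% rose and 21.0% fell in Cfp1-/- cells. In total count scaling 22 rose and 4 fell in WT and 21 rose and 5 fell in Cfp1-/- cells. That scale moved all genes the same way, with 5731 of 15758 higher and 1836 lower in WT cells. In Cfp1-/- cells 5271 were higher and 2057 lower. With the replicate number as a block 26 and 28 passed, where 55.9% and 57.0% of all genes did. Fewer of the 39 genes passed in each fit that left 1 library in a compared group, and fewer of all genes did. Of the other cytokine genes of the interleukin-6 family, Il11, Osm and Clcf1 rose in each line, Ctf1 and Cntf did not pass in either, and Il6 and Il27 had too few counts to be tested. Il11 went from 4 and 3 raw counts in untreated WT libraries to 21 and 24 in WT Dox libraries, a ratio of 8.03 after scaling (95% exact counting interval 3.595 to 21.1), and Osm from 3 and 2 to 11 and 12, a ratio of 5.75 (interval 2.14 to 19.4). Their log2 fold changes were 3.01 (SE 0.575, adjusted p = 0.00206) and 2.51 (SE 0.662, adjusted p = 0.0111) in WT and 2.53 (SE 0.480, adjusted p = 0.00203) and 1.62 (SE 0.492, adjusted p = 0.0214) in Cfp1-/- cells. Clcf1 rose by 2.28 (SE 0.645, adjusted p = 0.0156) and 1.93 (SE 0.636, adjusted p = 0.0304), calls that were lost by DESeq2 (adjusted p = 0.0554 and 0.109), the second also without the affected run (adjusted p = 0.0581). Ctf1 was at 0.47 (adjusted p = 0.355) and 0.019 (adjusted p = 0.971) and Cntf at -0.29 (adjusted p = 0.745) and -1.35 (adjusted p = 0.193) in WT and Cfp1-/- cells. Cntf, on chromosome 19, had 8 and 1 raw counts in the Cfp1-/- Dox libraries, and in the affected run it had 0 against 8 in the first. Clcf1, Ctf1 and Cntf are given to complete the cytokine genes and were added after their values were seen.

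Of the other receptor chains, Osmr and Il6ra rose where Lifr and Il6st fell. The remaining chains, named here after their values were seen, varied in the log2 ratios of their replicates. Il11ra1 was higher with doxorubicin in each replicate, and Il27ra, with 3 to 17 raw counts a library, went both ways. Cntfr had -0.53 and -0.91 in WT and 0.81 and 1.03 in Cfp1-/- cells. Osmr, which pairs with gp130 to bind oncostatin M, had 9.34 and 11.5 normalized counts in untreated WT cells and 40.6 and 63.4 in WT Dox cells, and 6.49 and 10.1 against 65.4 and 112 in Cfp1-/- cells. It rose by 2.37 (SE 0.462, adjusted p = 0.00233) and 3.43 (SE 0.463, adjusted p = 2.98e-04) on the log2 scale. Il6ra, the interleukin-6 receptor chain, rose by 2.53 (SE 0.470, adjusted p = 0.00177) and 1.88 (SE 0.393, adjusted p = 0.00344). Per kb of exon, Osmr in Cfp1-/- Dox cells was at 18.3 ± 6.80 normalized counts (SD, n = 2) and Il6st at 104 ± 20.7.

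Jak3, Stat5a and Stat5b rose in both lines. Jak3, the partner of receptors with the common gamma chain, had 257 and 169 normalized counts in untreated WT cells and 906 and 679 in WT Dox cells, a log2 fold change of 1.94 (SE 0.274, adjusted p = 3.65e-04), and it rose by 0.96 in Cfp1-/- cells (SE 0.263, adjusted p = 0.0136). Tyk2 did not pass, at 0.24 and 0.52 (adjusted p = 0.425 and 0.0990), but passed in Cfp1-/- cells with the block (adjusted p = 0.0248). Stat5a rose by 1.09 (adjusted p = 0.0121) and 1.14 (adjusted p = 0.00485), and Stat5b by 0.68 (adjusted p = 0.0324) and 1.23 (adjusted p = 0.00166).

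The SOCS genes moved in both directions. Socs2 fell from 2663 and 2398 normalized counts to 641 and 463 in WT cells and from 1265 and 986 to 278 and 167 in Cfp1-/- cells, by 2.15 (SE 0.255, adjusted p = 1.29e-04) and 2.30 (SE 0.262, adjusted p = 1.09e-04) on the log2 scale. Cish, a target of Stat5, rose by 1.00 (adjusted p = 0.0319) and 1.02 (adjusted p = 0.0297), and Socs1 rose by 1.79 in WT cells (adjusted p = 0.0239), with 1.38 in Cfp1-/- cells (adjusted p = 0.0651, 0.0108 with the block). Pim3 fell with Pim1, by 1.45 (SE 0.183, adjusted p = 1.88e-04) and 1.36 (SE 0.183, adjusted p = 2.92e-04). Pim2 fell by 1.68 in WT cells (SE 0.576, adjusted p = 0.0359), where the untreated replicates lay far apart at 341 and 1410 normalized counts, and this call was lost in total count scaling (adjusted p = 0.0770). In Cfp1-/- cells its log2 fold change was -0.75 (adjusted p = 0.316, 0.0417 with the block), and in the affected run it had 4 counts against 101 in the first.

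**Figure D3:**
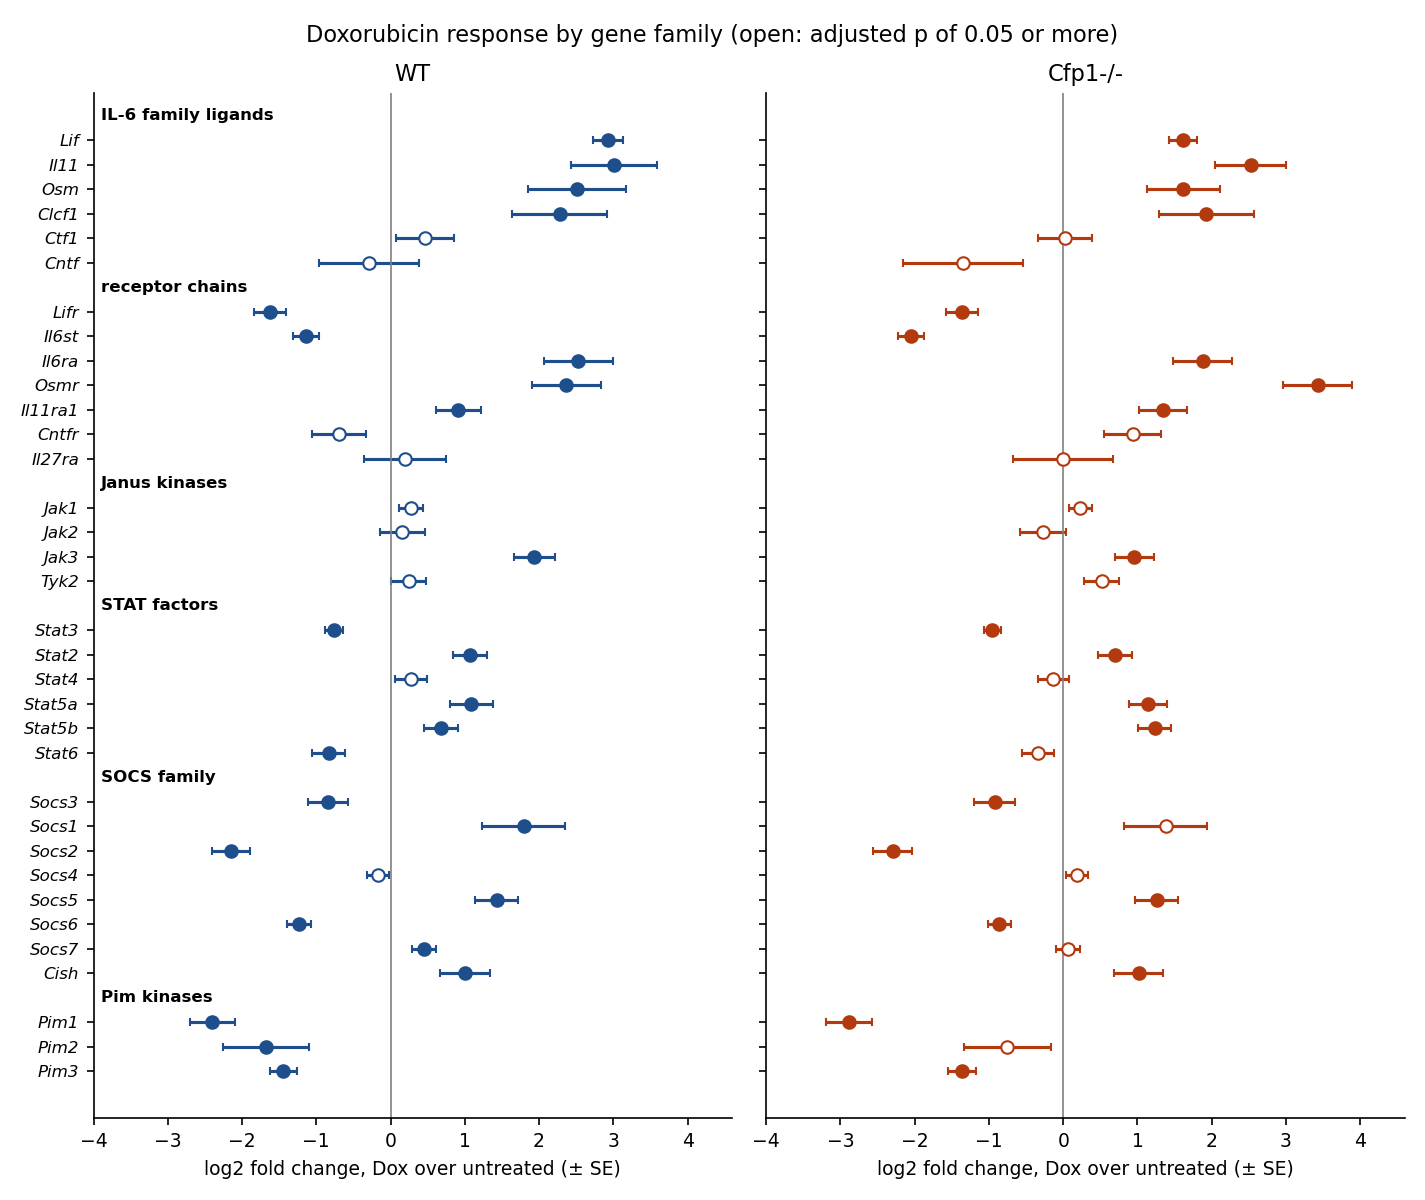
Log2 fold change of Dox over untreated cells (horizontal axes, bars of 1 SE) in WT (left) and Cfp1-/- cells (right) for the 8 genes and genes of their families, each gene a row. Filled points passed at an adjusted p under 0.05. Lifr and Il6st fall where Il6ra and Osmr rise, Stat3 falls where Stat5a rises by 1.09 and 1.14, and Socs2 lies with Socs3 and Pim1 to the left of 0.

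Of 15 further genes known to respond to Stat3, 3 rose and 6 fell in each line, where 26.5% and 27.8% of all genes rose and 21.8% and 21.0% fell in WT and Cfp1-/- cells. Their medians were -0.73 and -0.95. Without WT Dox replicate 2, fewer of them passed in WT cells, and fewer of all genes did. In total count scaling 3 rose and 4 fell in WT cells, where 5731 of 15758 genes rose and 1836 fell. Fos and Cebpb rose, by 2.45 (SE 0.472, adjusted p = 0.00217) and 1.59 (SE 0.266, adjusted p = 9.79e-04) on the log2 scale in WT cells and by 2.52 (SE 0.474, adjusted p = 0.00193) and 2.60 (SE 0.289, adjusted p = 9.25e-05) in Cfp1-/- cells. Both encode transcription factors. Gbx2, a homeobox gene, fell by 2.17 in WT cells (SE 0.407, adjusted p = 0.00189), with -0.95 in Cfp1-/- cells (adjusted p = 0.0784, 0.00417 with the block). Bcl3, of the IkappaB family, fell by 1.71 (SE 0.483, adjusted p = 0.0153) and fell by 2.18 (SE 0.484, adjusted p = 0.00476), and the early response gene Ier3 fell by 1.28 (adjusted p = 0.0295) and fell by 2.21 (SE 0.438, adjusted p = 0.00254). The Ier3 call in WT cells was lost in total count scaling (adjusted p = 0.0869).

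To find out whether the response depends on Cfp1, the difference between the responses was tested as an interaction term. None of the 8 genes passed, where 0.235% of all genes did, 37 in number, with 1671 at an unadjusted p under 0.05 and 216 by DESeq2. Replicates of equal number tended to deviate from their group means in the same direction, and with this number as a block 243 genes (1.54%) and 2 of the 8, Lif and Il6st, passed. The log2 response of Lif was smaller in Cfp1-/- cells by 1.31 (SE 0.267, 95% interval -1.91 to -0.71), with adjusted p = 0.114 in the unblocked fit, 0.0295 with the block and 0.00992 by DESeq2. That of Il6st differed by -0.92 (SE 0.240, interval -1.45 to -0.38), a deeper fall in Cfp1-/- cells, with adjusted p = 0.210 unblocked, 0.0483 with the block and 0.0565 by DESeq2. Each replicate showed these directions: Lif rose by 2.95 and 2.81 in WT against 1.71 and 1.43 in Cfp1-/- cells, and Il6st changed by -1.41 and -0.95 against -1.91 and -2.31, on the log2 scale. Without any 1 library, Lif differed by -1.47 to -1.17 and Il6st by -1.15 to -0.72.

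For the other 6 genes the difference was between -0.48 for Pim1 (SE 0.412, interval -1.40 to 0.44) and 0.27 for Lifr (SE 0.299, interval -0.40 to 0.94), with adjusted p of 0.742 or more. The interval reached -1.40 for Jak2 as well, so equal responses were not shown. None of the other pathway or Stat3-responsive genes passed in the unblocked fit. Jak3, with -0.98 (SE 0.374, adjusted p = 0.403), passed with the block (adjusted p = 0.0399). Mcl1, which encodes a survival protein and is named here after its values were seen, came nearest, with a log2 difference of 1.27 (SE 0.213), adjusted p = 0.0606 unblocked, 0.00742 with the block and 7.52e-05 by DESeq2. It had 19782 and 17721 normalized counts in untreated WT cells and 16999 and 12987 in WT Dox cells, but 8135 and 8569 against 15315 and 16887 in Cfp1-/- cells.

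To see what the loss of Cfp1 changes at a given treatment, Cfp1-/- cells were compared with WT cells. Without doxorubicin, Lif and Stat3 of the 8 genes were higher in Cfp1-/- cells and none was lower, where 17.9% of all genes were higher and 16.1% lower. Lif was 2.77-fold higher, a log2 fold change of 1.47 (SE 0.199, adjusted p = 7.73e-04), and Stat3 1.35-fold higher, a log2 fold change of 0.43 (SE 0.119, adjusted p = 0.0202). The Stat3 call was lost without WT untreated replicate 2 (0.35, adjusted p = 0.154) and without Cfp1-/- untreated replicate 1 (0.42, adjusted p = 0.0828) or 2 (0.47, adjusted p = 0.0557), and the Lif call in none of the 8 such fits. Il6st and Pim1 were lower in each Cfp1-/- library than in each WT library, with log2 fold changes of -0.47 (SE 0.168) and -0.73 (SE 0.279). Their adjusted p-values were 0.0567 and 0.0689 unblocked, 0.0223 and 0.0110 with the replicate block, 0.0350 and 0.0277 by DESeq2, and 0.0402 and 0.0420 without the affected run. Lifr (-0.21), Jak1 (0.08), Jak2 (0.04) and Socs3 (0.19) had adjusted p of 0.456 or more.

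With doxorubicin, 2 of the 8 genes were lower in Cfp1-/- cells and none higher, where 10.8% of all genes were lower and 15.1% higher. Il6st was 2.61-fold lower, a log2 fold change of -1.38 (SE 0.174, adjusted p = 9.2e-04), and Pim1 2.32-fold lower, a log2 fold change of -1.21 (SE 0.306, adjusted p = 0.0185). The Pim1 call was lost without WT Dox replicate 1 (-1.04, adjusted p = 0.0693) or without Cfp1-/- Dox replicate 2 (-0.81, adjusted p = 0.108). Lif, which stood 2.77-fold apart in untreated cells, had a log2 difference of 0.16 in treated cells (SE 0.180, 95% interval -0.24 to 0.57, adjusted p = 0.539). Stat3 had 0.24 (SE 0.120, adjusted p = 0.170).

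**Figure D4:**
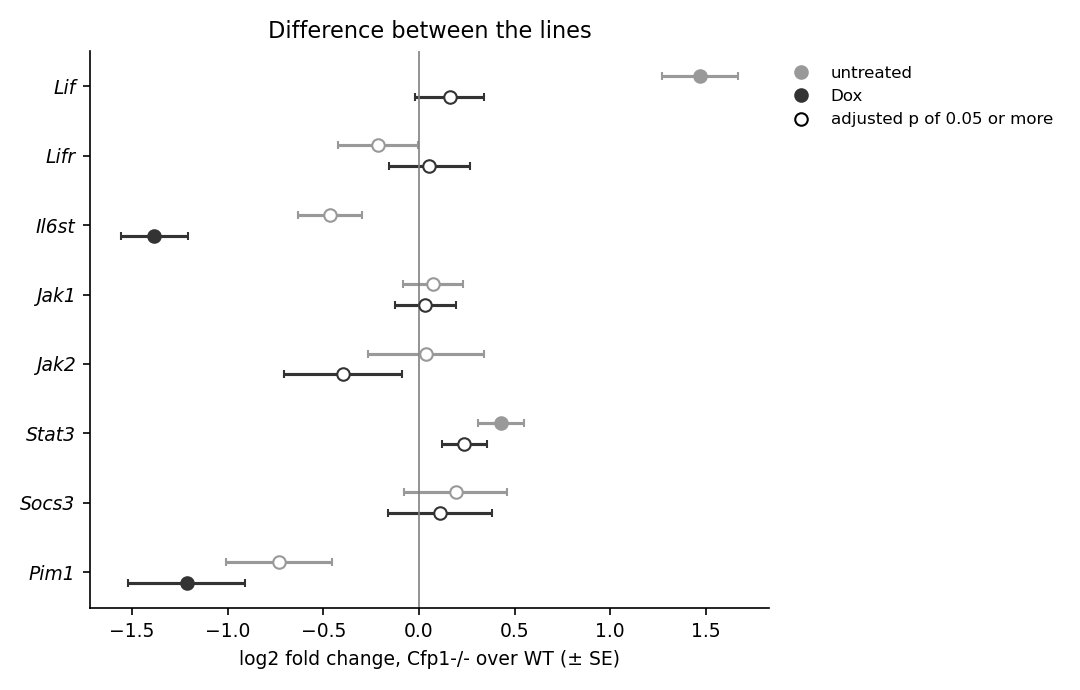
Log2 fold change of Cfp1-/- over WT cells (horizontal axis, bars of 1 SE) for the 8 genes in untreated (grey) and Dox cells (black). Filled points passed at an adjusted p under 0.05. Lif stands at 1.47 in untreated cells and at 0.16 in treated cells, and Il6st and Pim1 at -1.38 and -1.21 in treated cells.

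These differences were set beside those of all genes of the same chromosome, a description added after the values were seen. The median log2 difference of 1279 tested genes on chromosome 11, which holds Lif, Stat3 and Socs3, was 0.51 in untreated and 0.51 in treated cells, and 40.8% and 37.1% of them were higher in Cfp1-/- cells. Stat3, at 0.43, was above 45.7% of chromosome 11 genes, at -0.08 from their median. Lif was above 85.1% of them in untreated cells and above 26.2% in treated cells. Socs3, at 0.19 and 0.11, was below the median of its chromosome. Chromosome 7 was the other with a median near this size, at 0.53 and 0.47. The chromosomes of Il6st and Pim1 had medians of -0.15 and -0.03 in untreated cells and -0.04 and -0.07 in treated cells, where Il6st was above 3.43% and Pim1 above 4.27% of the genes of their own chromosome. The part of chromosome 11 as a whole in the differences of Lif and Stat3 was not tested. Within a line the chromosome 11 median response was 0.16 in WT and 0.13 in Cfp1-/- cells.

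**Figure D5:**
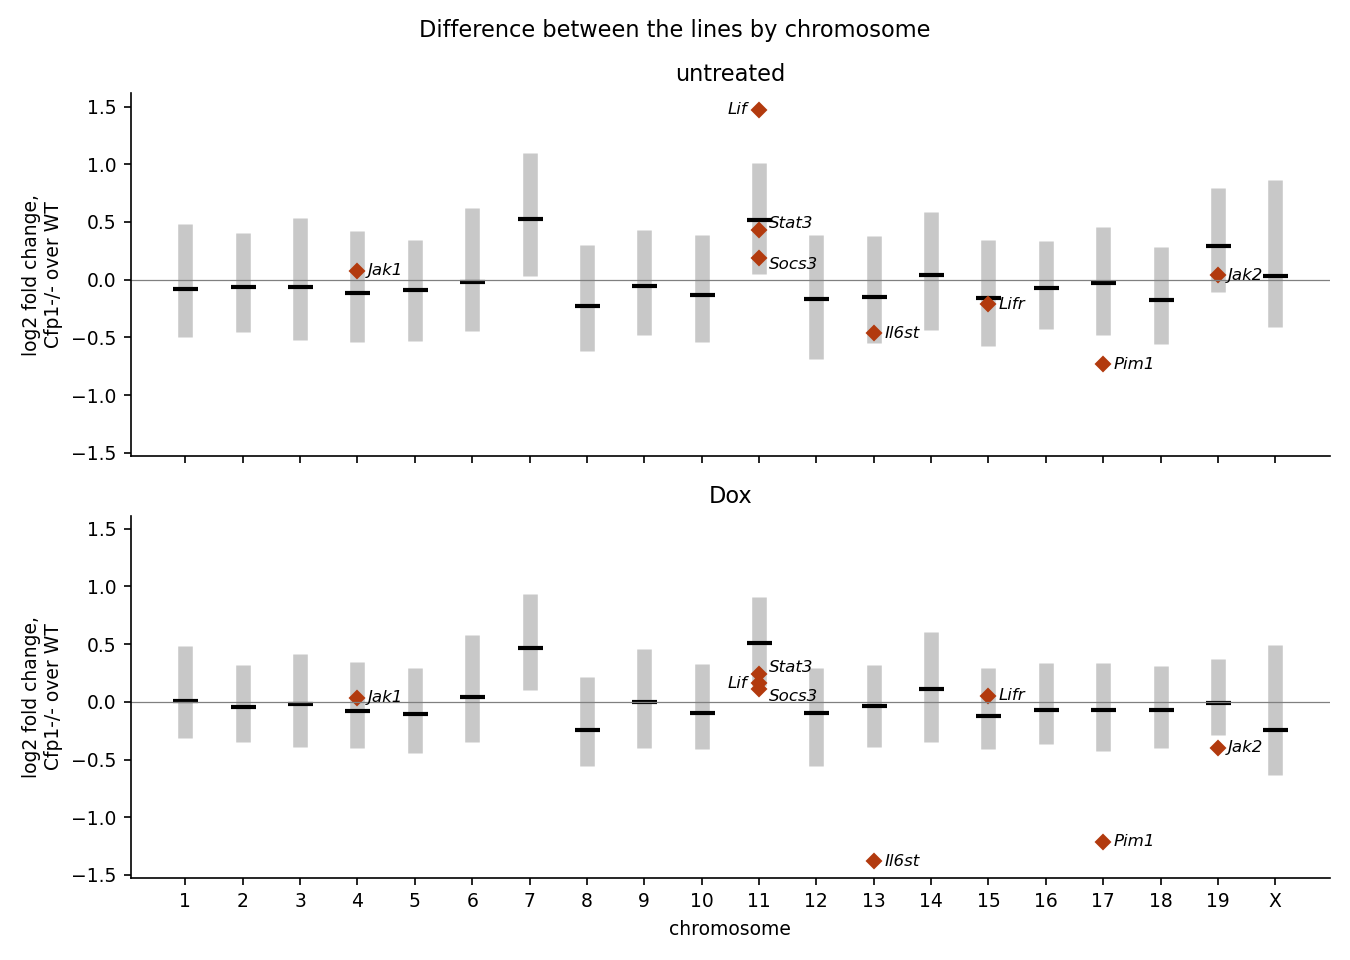
Log2 fold change of Cfp1-/- over WT cells (vertical axes) for all tested genes by chromosome, as the median (black line) and the range between the quartiles (grey bar), in untreated (top) and Dox cells (bottom). Red diamonds are the 8 genes. The medians of chromosomes 7 and 11 stand near 0.5, Stat3 lies close to the chromosome 11 median in untreated cells at 0.43, and Il6st and Pim1 lie far below theirs in treated cells.

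Of the 39 other pathway genes, 6 were higher and 9 lower in untreated Cfp1-/- cells, and 4 were higher and 3 lower in treated cells. Over all genes 17.9% were higher and 16.1% lower in untreated cells, and 15.1% and 10.8% in treated cells. In total count scaling the balance in untreated cells turned to 8 higher and 3 lower, and treated cells had 5 and 3. On that scale 3849 of 15758 genes were higher and 1610 lower in untreated cells, and 2824 and 1255 in treated cells. In each fit that left 1 library in a compared group, fewer of the 39 genes passed, and fewer of all genes did. Stat5a, also on chromosome 11, had 28.9 and 24.0 normalized counts in untreated WT cells against 110 and 103 in Cfp1-/- cells, and 60.3 and 49.6 against 210 and 246 with doxorubicin. It was higher by 2.03 (SE 0.282, adjusted p = 8.86e-04) and 2.08 (SE 0.270, adjusted p = 0.00103) on the log2 scale, above 90.4% and 93.8% of chromosome 11 genes. Stat5b was at 0.28 (adjusted p = 0.365) and 0.83 (adjusted p = 0.0245). Il6ra was higher by 2.41 (SE 0.466, adjusted p = 0.00411) and 1.76 (SE 0.395, adjusted p = 0.0115). Osm, with 3 and 2 raw counts in WT libraries and 14 and 7 in Cfp1-/- libraries, was higher without doxorubicin by 1.98 (SE 0.674, adjusted p = 0.0467), a ratio of 3.97 (95% exact counting interval 1.46 to 13.5), and this call was lost by DESeq2 (adjusted p = 0.132). The ciliary neurotrophic factor receptor gene Cntfr was lower without doxorubicin by 1.76 (SE 0.378, adjusted p = 0.00677).

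The other family genes ran in both directions. Socs2 was lower in Cfp1-/- cells, with log2 fold changes of -1.14 (SE 0.245, adjusted p = 0.00675) without and -1.28 (SE 0.260, adjusted p = 0.00736) with doxorubicin, and the adaptor gene Shc1 had -0.83 (adjusted p = 0.0305) with doxorubicin. Jak3 was higher by 1.13 (SE 0.270, adjusted p = 0.0107) without doxorubicin and had 0.15 (adjusted p = 0.697) with it. Pim2 and Pim3 were lower without doxorubicin, at -1.69 (adjusted p = 0.0461) and -0.52 (adjusted p = 0.0472). Both of these calls were lost in total count scaling (adjusted p = 0.0709 and 0.176), which moved the median of all genes to 0.20 in untreated and 0.11 in treated cells. Calls over all genes were 3849 higher and 1610 lower on that scale in untreated cells, against 2825 and 2537, and 2824 and 1255 in treated cells, against 2374 and 1700. Tyk2, Socs1 and Cish did not pass in either state.

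Of the 15 Stat3-responsive genes, 7 were lower in untreated and 3 in treated Cfp1-/- cells and none was higher. Over all genes 16.1% and 10.8% were lower and 17.9% and 15.1% higher. In total count scaling 1 was higher and 7 lower in untreated cells, where 3849 of 15758 genes were higher and 1610 lower. With the replicate block 10 and 7 passed, counted in either direction, where 43.6% and 36.8% of all genes did. In treated cells 11 passed in either direction where the block was kept and the affected run left out, a fit in which 6127 of 15762 genes passed. Tfcp2l1 of this list, named here after its values were seen, did not pass in the unblocked fit but had higher means. It had 13499 normalized counts in Cfp1-/- against 5794 in WT cells without doxorubicin, and 7343 against 3626 with it. Fewer of the 15 genes passed between untreated lines without untreated replicate 2 of WT or of Cfp1-/- cells. The same was found between treated lines without Dox replicate 2 of either. Fewer of all genes passed in these fits too. Sp5, a Wnt and LIF target, had 40 and 70 raw counts in untreated WT libraries against 11 and 1 in Cfp1-/- libraries, a ratio of 9.71 (95% exact counting interval 5.34 to 19.4), and 12 and 43 against 3 and 2 with doxorubicin, a ratio of 13.0 (interval 5.23 to 41.5). These intervals pool the replicates and leave out the spread between them. The log2 fold changes of Sp5 were -3.24 (SE 0.823, adjusted p = 0.0142) and -3.56 (SE 0.980, adjusted p = 0.0260). Myc, a transcription factor gene, had 528 and 376 normalized counts in untreated WT and 117 and 49.0 in untreated Cfp1-/- cells, a log2 fold change of -2.42 (SE 0.538, adjusted p = 0.00779). Gbx2 and Cebpb were lower in untreated cells by 1.73 (adjusted p = 0.00893) and 1.67 (adjusted p = 0.00247). In treated cells Junb had -1.90 (SE 0.259, adjusted p = 0.00133) and Ccnd1, the cyclin D1 gene, -0.83 (adjusted p = 0.0307). Junb lies on chromosome 8, where the median difference was -0.25, and 1.70% of the genes on that chromosome had a lower value.

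Correlations of log2 CPM across the 8 libraries describe libraries that share treatment and line. The highest Pearson correlation was 0.96, between Il6st and Pim1, followed by 0.92 between Lifr and Socs3, 0.90 between Lifr and Pim1 and 0.89 between Lifr and Stat3. Lif ran against Pim1 at -0.90 and against Lifr at -0.90. Jak2 stayed between -0.28 and 0.23 with each of the others. Outside the pathway, the 3 genes most like Lif were Yipf2, Xaf1 and Gm9949 (0.99 each), those most like Lifr were Pura, Fnbp4 and Anp32a (0.99 each) and those most like Il6st were Tbp, Bcl7b and Ahcyl2 (0.99 each). Stat3 was followed most closely by Ppm1g, Coil and Adamts9 (0.99 each), Socs3 by BC028528, Rdh13 and Zfp329 (0.98 to 0.99) and Pim1 by Pms1, Ctdspl2 and Nfatc3 (0.99 each). Jak1 was followed by Lrba, Dysf and Mlxip (0.93 to 0.95) and Jak2 by Dgkk, Zfp36l3 and Flnc (0.96, 0.95 and 0.91). Dgkk and Zfp36l3 lie on chromosome X, where the affected run of Cfp1-/- cells had most of its genes at 0, as on the chromosome of Jak2. In an alternative added after seeing the data, without that run, the values for Jak2 were 0.94, 0.83 and 0.66. None of these genes was on the list of other pathway genes.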

How the data were processed

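RNA-seq libraries of WT and Cfp1-/- ES cells, untreated or given doxorubicin, were made with Ribo-Zero depletion and a strand-keeping ScriptSeq kit. The authors aligned the reads to mm9 with STAR (version 2.2.1 in the submitters' processing notes, a different version in the methods) and deposited raw read counts per gene, made by strand with HTSeq-count. The deposited normalized table holds a signal, the counts of the technical replicates summed and divided by a DESeq size factor. From these files, technical replicates were summed, giving 8 biological replicates of 14880589 to 29422711 counts in 4 groups, and edgeR 4.0.16 (R 4.3.3) was run with TMM scaling, filterByExpr, a coefficient per group and the quasi-likelihood test, with p-values adjusted by the Benjamini-Hochberg method. A count of 0 allows up to 3 counts. Counting intervals pool the replicates of a group and cover counting error only, not the spread between replicates.

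The deviations of equally numbered replicates from their group means were correlated (0.140 to 0.451 over the pairs of groups), so the fit with the replicate number as a block is given where it changes a call. What the numbers share was not stated. Alternatives were other scalings, DESeq2 1.42.0, other filters, samples, runs and call limits. The steps were tested on simulated data. The 8 genes are all named, and of the other pathway and Stat3-responsive lists the 4 largest changes that passed in each comparison, plus Jak3, Tyk2, Stat5a, Stat5b, Socs1, Socs2, Cish, Pim2 and Pim3, and for each of the 8 the 3 genes of highest correlation. A gene that this rule also names is not reported here. The members, lists and alternatives were chosen with earlier results of these data known. Cebpd was on the Stat3-responsive list but was not found by symbol. Exon lengths and positions came from GENCODE (NCBIM37).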

Additional observations from a re-analysis of the deposited data

How the results depend on the processing

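Over 672 alternative values of the 8 genes in the 5 comparisons, 608 kept their direction and their side of the threshold, 11 no longer passed, 24 passed only under the alternative and 29 changed sign. No value that changed sign had passed. With a replicate block, 2 genes passed for the difference between responses and 4 between untreated lines, against 0 and 2 without it. Over all genes 1.54% and 43.6% passed with the block, so 4 of the 8 lay near the share of all genes. The same 2 and 4 counts were found when the affected run was left out as well. Il6st and Pim1 gave the further calls between untreated lines, and the block changed no other call of the 8 genes. DESeq2 gave 1 and 4, and 4 passed between untreated lines with no filter on low counts or without the affected run. Over all genes, 5392 passed between untreated lines by DESeq2, 5636 with no filter and 5651 without the affected run, against 5362 in the main fit. Limits of 2.5-fold and a mean of 200 counts left 3 for the WT response, 0 between untreated and 1 between treated lines, and limits of 2-fold left 0 between untreated lines. Leaving out 1 library gave 1 to 4 between untreated and 1 to 2 between treated lines.

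The Jak2 response in Cfp1-/- cells turned to 0.019 without the affected run, to 0.017 with first technical replicates alone and to 0.0084 without the run and with the block. The Jak1 difference between responses turned to 0.0036 without the run and 0.0073 with the block as well, and the treated Socs3 difference between lines to -0.015 and -0.025.

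Leaving out 1 library moved the sign of 13 values that had not passed. Ranges were -0.28 to 0.50 for the Jak2 response in WT cells. For differences between responses they were -0.034 to 0.58 (Lifr), -0.25 to 0.18 (Jak1), -0.82 to 0.0016 (Jak2) and -0.59 to 0.29 (Socs3). Between untreated lines they were -0.43 to 0.050 (Lifr), -0.14 to 0.28 (Jak1) and -0.24 to 0.39 (Jak2). Between treated lines they were -0.0025 to 0.30 (Lif), -0.21 to 0.36 (Lifr), -0.060 to 0.12 (Jak1), -0.73 to 0.038 (Jak2) and -0.39 to 0.48 (Socs3). The cause was not tested. In these fits the lone library of a group is assumed to vary like the other groups.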
